A study of Mus musculus with 288 samples.

Results

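Lin28a, Lin28b, Trim71, Hmga1, Hmga2, Igf2bp1 and Igf2bp3 belong to a post-transcriptional network that is active in early embryos, and their reads were followed in single mouse embryonic stem cells (mESCs) released from 2i into serum. They were chosen by name as the genes around the let-7 microRNA axis, and they are 7 of the 54232 genes in the deposited count table. The LIN28 proteins bind let-7 precursors and recruit terminal uridylyltransferases, so that the precursors are degraded before mature let-7 forms. TRIM71 is an RNA-binding ubiquitin ligase that represses target messenger RNAs, the HMGA proteins are architectural chromatin proteins that bind AT-rich DNA, and the IGF2BP proteins bind messenger RNAs and affect their stability and translation. All of these genes are known let-7 targets, and LIN28 and TRIM71 are known for their high levels in pluripotent cells.

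The cells were labelled as the line E14 of strain 129/Ola in all 3 groups. The D0 cells came from N2B27 medium with the inhibitors CHIR99021 and PD0325901 (2i) and leukaemia inhibitory factor (LIF), while the D1 and D2 cells had been rinsed and kept in serum with LIF for 24 h and 48 h. Cells were flow-sorted into 96-well plates and their DNA was treated with the GpC methylase M.CviPI for scNMT-seq, a method that reads the RNA, DNA methylation and chromatin accessibility of the same cell. Of the 96 wells of each label, 90 (D0), 50 (D1) and 93 (D2) passed the filter on cells, and their values are given as CPM (counts of a gene scaled to a common total of reads on genes per cell).

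The labels give 96 wells for each time point and name no separate cultures, so each label was taken as 1 culture and 1 plate. Differences of time can therefore not be told apart from those of plate or library. Cells of a culture do not replicate it, and no test between labels was made. Errors are the SD between cells, and 95% intervals cover counting error only, since the counts hold PCR copies without molecular identifiers. The median depth was 1610758.5 reads in D0, 7956161.5 in D1 and 2162090 in D2, and at an equal depth of 200000 reads the typical cell of these labels had 7802, 8034.5 and 3975 detected genes (medians). The D1 plate stood apart from the others in Hprt, a purine salvage gene that is deleted in the E14TG2a derivative of E14. Hprt had a read in 48 of 50 D1 cells, 9 of 90 D0 cells and 7 of 93 D2 cells, at means of 207, 3.08 and 2.68 CPM, so only 2 D1 cells were like the others and each comparison with D1 also compares these plates. Pluripotency markers (Pou5f1, Sox2, Nanog, Zfp42 and Dppa5a) had a read in 99.6% of gene and cell pairs in D0, 96.8% in D1 and 88.2% in D2, while the median summed level of the endoderm, trophectoderm, mesoderm, neural and fibroblast markers was 0 CPM in every label. In the order D0, D1 and D2, a read was present in 5.83%, 3.50% and 3.76% of pairs for endoderm, 9.17%, 13.5% and 2.42% for trophectoderm and 11.1%, 3.33% and 0.717% for mesoderm. For neural markers it was 1.67%, 24% and 2.69%, and for fibroblast markers 1.85%, 7.33% and 0.717%. The neural marker Pax6 had a read in 0 D0 cells, 22 D1 cells (mean 9.02 ± 16.3 CPM) and 3 D2 cells, so it moved with the D1 label, and its part in the results was not tested.

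The mature sequences show what the axis reads on its targets, and 4 of them are given here with the seed (bases 2 to 8) in capitals. They are from RefSeq (GRCm38.p6).
let-7a-5p: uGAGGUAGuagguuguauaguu
let-7d-5p: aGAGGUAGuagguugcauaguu
let-7g-5p: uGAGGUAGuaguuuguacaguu
miR-98-5p: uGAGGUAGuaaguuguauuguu
The seed is the same in the 9 mature 5p names of the family found in the table, which come from 11 hairpin genes, while Mirlet7a-2 has no 5p entry there and its arms could not be placed. LIN28 proteins are known to bind a GGAG motif in the terminal loop of let-7 precursors. Of the 11 hairpins with both arms placed, those 4 letters were found between the arms of 8 and not between the arms of 3 (Mir98, Mirlet7b and Mirlet7c-2). The hairpin of Mirlet7g (chr9:106178840-106178927, plus strand) is shown with this motif in capitals, because it was the let-7 row with the most reads in the table.
Mirlet7g: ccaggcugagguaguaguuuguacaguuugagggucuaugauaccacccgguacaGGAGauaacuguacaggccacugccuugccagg

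The reverse complement of the seed, CTACCTC, was searched on the sense strand of the 3′ UTR of each member (GENCODE vM21, GRCm38), and all 7 held it. Lin28a held 2 matches, Lin28b, Trim71, Hmga2 and Igf2bp1 held 4 each, and Hmga1 and Igf2bp3 held 1 each. Over 21022 genes with an annotated 3′ UTR, 9.02% held a match. Long UTRs hold more, and among UTRs within 20% of the member's own length the share with a match was 14.4% for Lin28a, 24.2% for Lin28b, 29.5% for Trim71, 8.07% for Hmga1, 15.5% for Hmga2, 33.7% for Igf2bp1 and 13.3% for Igf2bp3. The match nearest the start of each 3′ UTR is printed with the 15 bases before it, in the direction of the transcript, with the match in capitals and the A opposite the first base of let-7 in capitals where it is present.
Lin28a (chr4:134005189-134005211, minus strand): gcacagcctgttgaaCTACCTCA
Lin28b (chr10:45381022-45381044, minus strand): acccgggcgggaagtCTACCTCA
Trim71 (chr9:114512472-114512494, minus strand): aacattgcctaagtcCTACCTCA
Hmga1 (chr17:27563277-27563299, plus strand): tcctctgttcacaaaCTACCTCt
Hmga2 (chr10:120364224-120364246, minus strand): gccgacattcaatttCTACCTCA
Igf2bp1 (chr11:95961778-95961800, minus strand): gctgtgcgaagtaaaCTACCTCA
Igf2bp3 (chr6:49086787-49086809, minus strand): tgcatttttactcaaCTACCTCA
These matches are a description of the letters and not measured binding. All 4 matches of Trim71 carry the following A, whereas the 1 match of Hmga1 does not.

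At 24 h the members differed among themselves, and at 48 h most were below their 2i level. Compared with D0, 3 of the 7 members were at least 2-fold higher in D1 (Lin28a, Lin28b and Hmga1), where 15.4% of all 13784 genes tested were, and 1 was at least 2-fold lower (Igf2bp3), where 27.2% were. In D2 compared with D0, 1 member was at least 2-fold higher (Hmga1), beside 16.5% of tested genes, and 4 were at least 2-fold lower (Trim71, Hmga2, Igf2bp1 and Igf2bp3), beside 28.3%. In D2 compared with D1, 0 members were at least 2-fold higher and 5 were at least 2-fold lower (Lin28b, Trim71, Hmga1, Hmga2 and Igf2bp1), beside 20% and 21.2% of tested genes. The median log2 ratio over the members was 0.45 in D1 over D0, -1.78 in D2 over D0 and -1.43 in D2 over D1, and over all tested genes it was -0.26, -0.16 and 0.0028. The last member median is the value of Lin28b, and it was -2.38 without 1 D2 cell. The comparisons share their cells, so they are not independent of each other. The numbers of members were the same with only the 48 D1 cells that had an Hprt read. In the 2 D1 cells without one, the level was 3.66 and 55.6 CPM for Lin28a, 17.4 and 88.9 for Trim71, 52.2 and 109 for Hmga1, 170.3 and 324 for Igf2bp1, 22.9 and 159 for Igf2bp3, 0 and 10.1 for Hmga2 and 0 in both for Lin28b. With scaling factors from trimmed means of M values (TMM), the members split into 3 higher and 0 lower at 24 h and into 2 higher and 4 lower at 48 h, both against D0. TMM also moved the tested genes, to 19.7% higher and 21.5% lower in D1 over D0 and to 24.3% higher and 25.2% lower in D2 over D0.

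**Figure D1:**
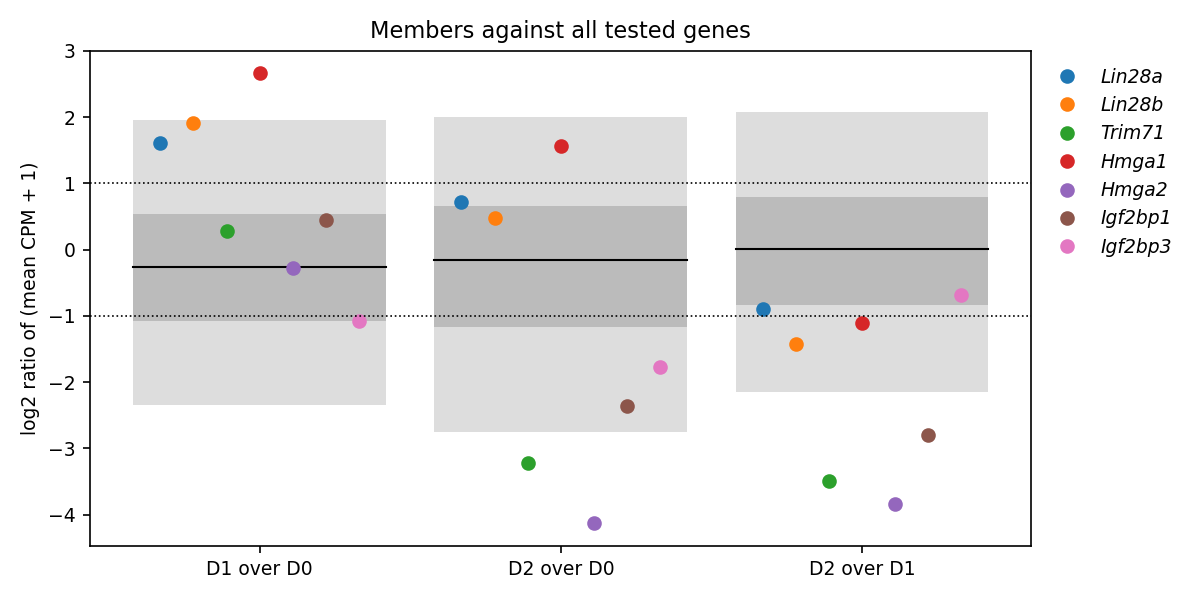
Log2 ratios of (mean CPM + 1) for each member (coloured points) in D1 over D0, D2 over D0 and D2 over D1. Grey bands give the middle 90% and 50% of the 13784 tested genes, black lines their median and dotted lines a 2-fold difference. Trim71 and Hmga2 lie below the band of the middle 90% in both comparisons of D2, Igf2bp1 does so in D2 over D1, and Hmga1 lies above it in D1 over D0.

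Lin28a encodes the LIN28 paralog that acts mainly in the cytoplasm. In D0 its level ran from 0 to 162 CPM with a median of 7.26, in D1 from 0 to 188 with a median of 46.3, and in D2 from 0 to 906 with a median of 0.223. Each label held cells without a read, the labels overlapped up to the highest D0 cell, and the cells above the highest D1 cell were from D2. The means were 22.3 ± 32 CPM in D0 (n = 90 cells), 70.2 ± 61 in D1 (n = 50) and 37.2 ± 114 in D2 (n = 93), so the log2 ratio against D0 was 1.61 for D1 and 0.71 for D2. The D2 mean and median point in different directions against D0. In D2 the 5 cells with the highest level held 57.5% of the summed CPM, and without the highest cell the D2 over D0 ratio was 0.30. At equal depth a Lin28a read was found in 52.2% of D0 cells (interval 41.4% to 62.9%), 82% of D1 cells (68.6% to 91.4%) and 41.9% of D2 cells (31.8% to 52.6%). These intervals cover the counting of cells within 1 culture and say nothing of the spread between cultures.

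Lin28b, the paralog that is also found in the nucleus and nucleolus, was read in few D0 and D2 cells. A read was present in 5 of 90 D0 cells, 25 of 50 D1 cells and 7 of 93 D2 cells as deposited, and in 4.44%, 36% (interval 22.9% to 50.8%) and 7.53% at equal depth. The highest cell reached 135 CPM in D0, 93.2 in D1 and 226 in D2, so the highest D0 and D2 cells exceeded every D1 cell. The means were 2.58 ± 15.6, 12.4 ± 21 and 3.99 ± 24.7 CPM, from 250 (220 to 283), 10386 (10187 to 10588) and 1310 (1240 to 1383) summed reads. A single cell held 76.6% of the D2 reads. The log2 ratio of D1 over D0 was 1.91, and it was 2.68 without the highest D0 cell. Over all alternatives run it was from 0.83 to 3.44, so the 2-fold difference was not always reached. No direction can be given for D2 over D0, where the log2 ratio was 0.48 with all cells, -0.47 without the highest D2 cell and 1.26 without the highest D0 cell. It was -1.27 on plate columns 1 to 6 and 2.44 on plate columns 7 to 12. Of the 47 D1 cells with a read of either paralog, Lin28b held more of the reads than Lin28a in 5, and over the summed D1 reads its share was 16.6%.

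Trim71 was read in nearly every D0 and D1 cell and in few D2 cells. Its level ran from 0 to 266 CPM with a median of 93.3 in D0, from 17.4 to 627 with a median of 97.6 in D1, and from 0 to 369 with a median of 0 in D2. The medians of D0 and D1 were close, and the D2 median lay below every D1 cell. The means were 101.4 ± 67.8, 123 ± 106 and 9.98 ± 46 CPM. The log2 ratio was 0.27 in D1 over D0, a difference smaller than the SD between cells, and -3.22 in D2 over D0. Of the D2 total, 85.7% came from 5 cells, and without the highest of them the ratio was -3.85. At equal depth a Trim71 read was present in 95.6% of D0 cells, 100% of D1 cells and 17.2% of D2 cells (interval 10.2% to 26.4%). The median tested gene was read in 55.6%, 55% and 16.1% of the cells at the same depth, so Trim71 stood above the median gene in D0 and D1 and close to it in D2.

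**Figure D2:**
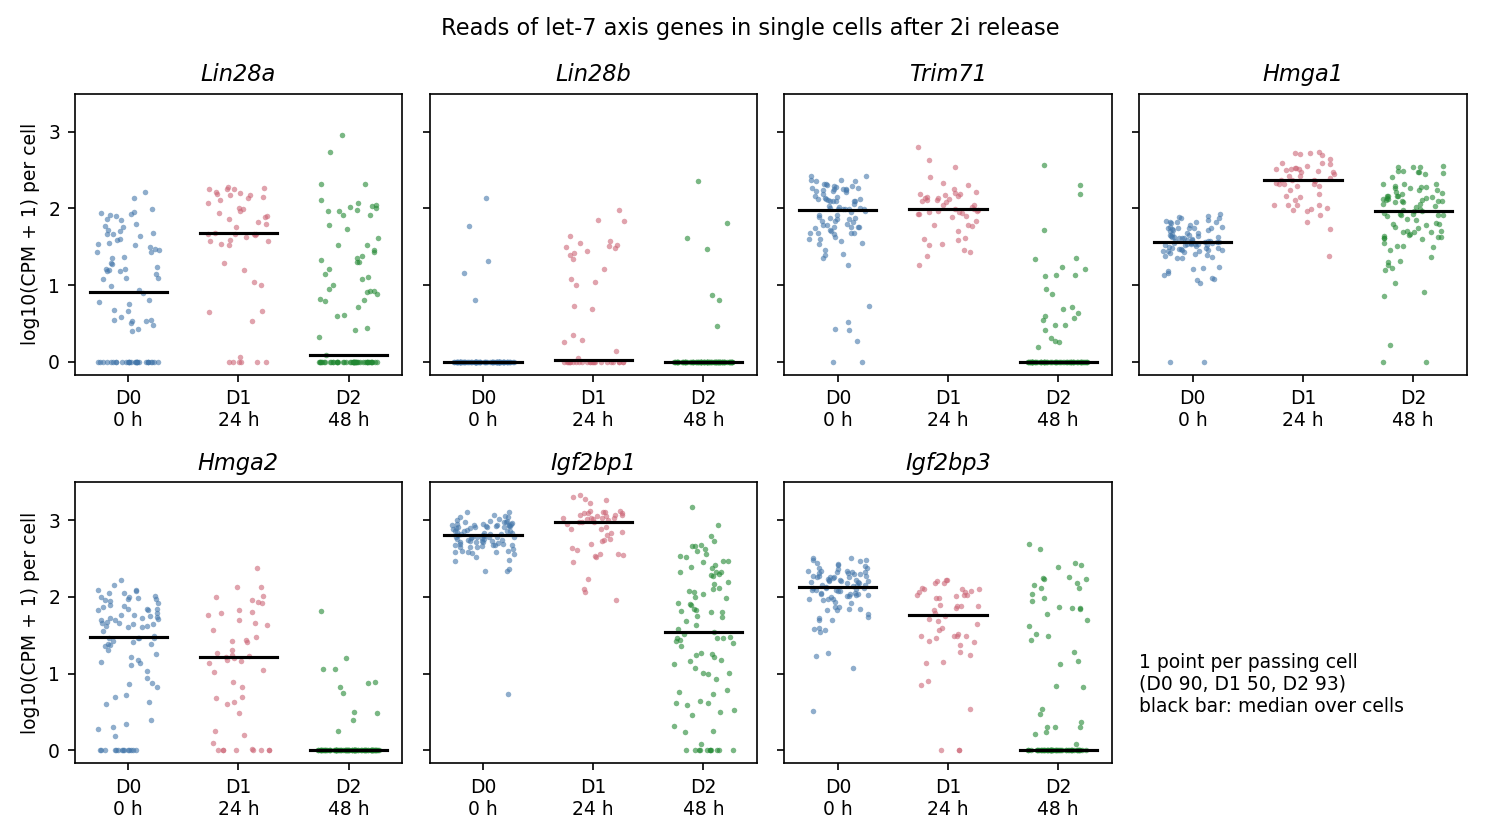
CPM per cell on a log10(CPM + 1) scale for each member in D0 (0 h), D1 (24 h) and D2 (48 h). Each point is 1 passing cell and the black bar is the median. The D2 medians of Trim71, Hmga2 and Igf2bp3 are at 0 CPM, while that of Hmga1 is 92.1 CPM.

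By its own row in the table, Hmga1 was more than 2-fold higher in both serum labels. Its level ran from 0 to 82.7 CPM with a median of 35.8 in D0, from 22.9 to 540 with a median of 234 in D1 and from 0 to 351 with a median of 92.1 in D2. Most D1 cells lay above the highest D0 cell, and the highest D2 cell lay below the highest D1 cell. The means were 38.2 ± 18.1, 247 ± 136 and 114 ± 91 CPM, and the log2 ratio was 2.66 in D1 over D0, 1.56 in D2 over D0 and -1.11 in D2 over D1. A read was present at equal depth in 96.7% of D0 cells, 100% of D1 cells and 96.8% of D2 cells.

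The size of the Hmga1 difference depends on a near-identical copy, Hmga1b (chr11:120762794-120764419, plus strand). Its annotated transcript matches that of Hmga1 at 99.8% of 1602 aligned bases, and 84% of its 75-base stretches, the read length, also occur in Hmga1, so the counting could split the reads of one gene between both rows. Hmga1b held 59.4% of the summed reads of the pair in D0, 13.3% in D1 and 61.1% in D2. In the 48 D1 cells with an Hprt read the share on Hmga1b was 13.1%, and in the 2 D1 cells without one it was 56.2%. The 9 D0 and 7 D2 cells with an Hprt read had 62.5% and 56.1% on Hmga1b, close to the other cells of their labels (59.1% and 61.3%), so a read of Hprt did not go with the split outside D1. Summed over both rows the level was 93.1 ± 42.7 CPM in D0, 290 ± 152 in D1 and 290 ± 246 in D2. On this summed scale the log2 ratio against D0 was 1.63 for D1 and 1.63 for D2, and that of D2 over D1 was -0.0029. The 2-fold difference from D0 was therefore present in both serum labels in the Hmga1 row and in the sum. The lower D2 over D1 value of the Hmga1 row was absent from the sum. By its own row, Hmga1b gave -0.34 in D1 over D0, 1.66 in D2 over D0 and 2.00 in D2 over D1.

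**Figure D3:**
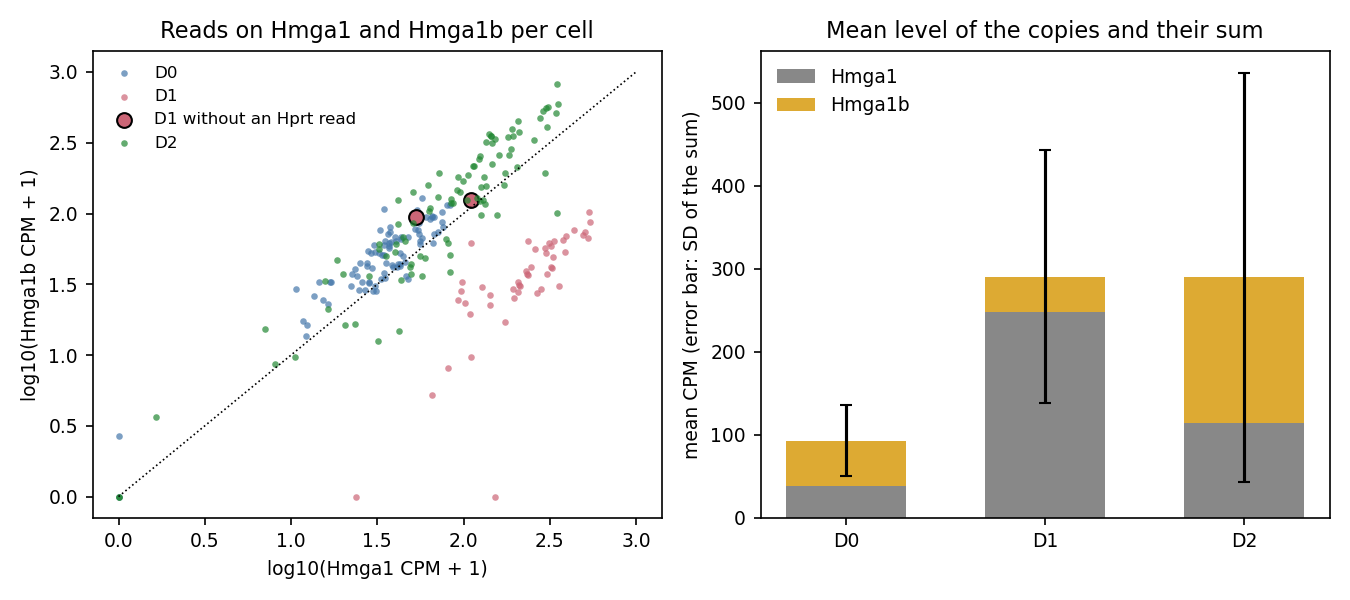
Left, CPM on Hmga1 and on Hmga1b per cell (log10 of CPM + 1), with 1 point per cell and the line of equal levels dotted. Right, mean CPM of both rows stacked, with the SD of the sum between cells as the error bar. The D1 cells with an Hprt read lie below the line, the 2 D1 cells without one lie among the D0 and D2 cells, and the summed level is 290 CPM in both D1 and D2.

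Hmga2, the paralog known from the embryo and from tumours, did not share the pattern of Hmga1. Its level ran from 0 to 164 CPM with a median of 29 in D0, from 0 to 238 with a median of 15.2 in D1 and from 0 to 64.6 with a median of 0 in D2. The D0 and D1 cells overlapped nearly throughout, and only 12 of 93 D2 cells had any read. The means were 41 ± 39.4, 33.5 ± 46.5 and 1.40 ± 7.05 CPM, and the log2 ratio against D0 was -0.28 for D1 and -4.13 for D2. The D1 over D0 ratio has no stable direction, since TMM factors gave 0.07 and all wells without a filter gave 0.49. At equal depth 74.4% of D0 cells, 70% of D1 cells and 7.53% of D2 cells had a read (interval 3.08% to 14.9%). Of the reads on Hmga1 and Hmga2 together, the median cell had 48.9% on Hmga2 in D0, 7.60% in D1 and 0% in D2. The size of this drop depends on the split of reads between Hmga1 and Hmga1b, since with both rows counted as Hmga1 the median D0 cell had 26.3% and the median D1 cell 6.30% on Hmga2.

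The messenger RNA-binding protein gene Igf2bp1 was read in every D0 and D1 cell. Its level ran from 4.48 to 1283 CPM with a median of 629 in D0, from 90.4 to 2131 with a median of 950 in D1 and from 0 to 1491 with a median of 34.1 in D2. The D2 median lay below every D1 cell. The means were 658 ± 249, 897 ± 494 and 128 ± 216 CPM, and the log2 ratio was 0.45 in D1 over D0, -2.36 in D2 over D0 and -2.80 in D2 over D1. All D0 and D1 cells kept a read at equal depth, against 77.4% of D2 cells (interval 67.6% to 85.4%), so in D2 the level was lower while most cells still had a read.

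Igf2bp3 was lower in both serum labels. Its level ran from 2.24 to 324 CPM with a median of 134 in D0, from 0 to 164 with a median of 57.5 in D1 and from 0 to 488 with a median of 0 in D2. The cells overlapped between labels, and the highest D2 cell exceeded every D0 cell. The means were 143 ± 74.9, 66.8 ± 49.8 and 40.9 ± 88.4 CPM. Against D0 the log2 ratio was -1.08 for D1 and -1.78 for D2. The first of these lies close to the 2-fold line and was -0.65 with TMM factors. At equal depth a read was present in 100% of D0 cells, 90% of D1 cells and 35.5% of D2 cells (interval 25.8% to 46.1%). Reads of Igf2bp3 are uncertain in part, because 17.8% of its 75-base stretches also occur in transcripts of the overlapping gene Malsu1. Of the reads on Igf2bp1 and Igf2bp3 together, the median cell had 17.1% on Igf2bp3 in D0 (range 3.35% to 42.1%) and 5.83% in D1. In D2 the share ran from 0% to 100%, and 18 of 87 cells with a read of either had more than 50% on Igf2bp3.

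**Figure D4:**
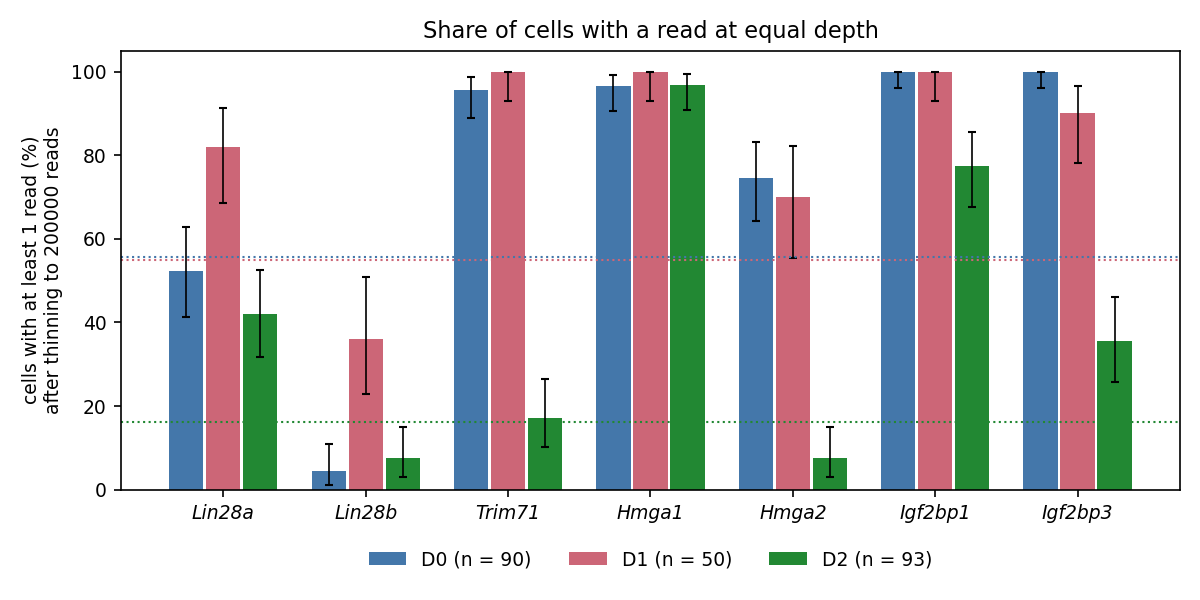
Share of cells with at least 1 read of each member after each cell was thinned to 200000 reads, with exact 95% Clopper-Pearson intervals. Dotted lines give the share for the median tested gene in each label (55.6% in D0, 55% in D1 and 16.1% in D2). Trim71 and Hmga2 are in 95.6% and 74.4% of D0 cells and in 17.2% and 7.53% of D2 cells.

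Per kilobase of exon, the order of the mean levels in D0 was Igf2bp1 (68 CPM per kb), Hmga1 (18), Igf2bp3 (17.5), Trim71 (10.9), Hmga2 (6.05), Lin28a (5.57) and Lin28b (0.284). From Hmga1 to Lin28a, each neighbouring pair in this D0 order differed by less than the SD of either, so their order is not settled. With the reads of Hmga1b added, Hmga1 was at 43.8 ± 20.1 CPM per kb in D0, apart from Igf2bp3 and still second to Igf2bp1, and at 137 and 136 in D1 and D2. In D1 the order began with Hmga1 (116 CPM per kb), Igf2bp1 (92.7) and Lin28a (17.6), and in D2 with Hmga1 (53.8), Igf2bp1 (13.2) and Lin28a (9.30). Hmga2 was last in D2, at 0.206 CPM per kb. In both serum labels Lin28a differed from the next member, Trim71 in D1 and Igf2bp3 in D2, by less than its SD between cells. Hmga1 and Igf2bp1 in D1, and Igf2bp1 and Lin28a in D2, differed by less than the SD of either.

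The lower D2 levels could not be set apart from the smaller number of genes detected in D2, because fewer transcripts per cell and a lower recovery of RNA give the same counts. Among cells with over 5000 detected genes, 87 D0 cells, 49 D1 cells and 36 D2 cells remained. In these D2 cells a read at equal depth was present for Trim71 in 25% (interval 12.1% to 42.2%), for Hmga2 in 13.9% (4.67% to 29.5%), for Igf2bp3 in 41.7% (25.5% to 59.2%) and for Igf2bp1 in 86.1% (70.5% to 95.3%). In the D0 cells above the same limit the shares were 97.7%, 77%, 100% and 100%. These cells were not matched in detected genes, with a median of 9037 in D0 and 5620 in D2, and the median tested gene was read in 57.5% of the D0 and 22.2% of the D2 cells. The log2 ratio of D2 over D0 in these cells was -4.60 for Trim71, -3.53 for Hmga2, -2.08 for Igf2bp1 and -1.52 for Igf2bp3. Lin28a gave 0.97 and Hmga1 gave 1.64. For Lin28a the mean of these D2 cells was 46.2 ± 152 CPM, with the highest cell at 906 CPM. Their median of 3.00 CPM lay below the 8.85 CPM of the D0 cells, so no direction can be given for it.

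The number of members read together in a cell also differed. At equal depth the median cell had a read of 5 members in D0, 6 in D1 and 3 in D2. All 7 members were read in 1 D0 cell, 10 D1 cells and 0 of 93 D2 cells, a count that allows a share of up to 3.23%. At least 5 members were read in 75 of 90 D0 cells, 47 of 50 D1 cells and 5 of 93 D2 cells. The median tested gene was also read in fewer D2 cells at this depth, 16.1% beside 55.6% in D0, and the part of this in the lower number of members was not tested. In D1, 16 of the 18 cells with a Lin28b read also had a Lin28a read, beside 14.8 from the product of their shares.

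Co-variation between cells was described with Spearman's rho of CPM within each label, for members that had a read in 50% or more of its cells. The cells of a label share the plate, the library pool and a depth that differs from cell to cell, so no p-value is given. In the 90 D0 cells the 15 pairs had a median rho of 0.07 and a highest of 0.27 (Hmga1 with Igf2bp1). In the 93 D2 cells 3 pairs could be formed, from 0.06 to 0.23. The 50 D1 cells stood apart, with 21 pairs, a median of 0.18 and 7 pairs of at least 0.3. Those pairs joined Lin28a, Hmga1, Igf2bp1 and Igf2bp3 to each other and Trim71 to Hmga1. Hmga1 with Igf2bp1 gave 0.61, Lin28a with Igf2bp1 0.55, Lin28a with Hmga1 0.55, Igf2bp1 with Igf2bp3 0.50, Lin28a with Igf2bp3 0.48, Hmga1 with Igf2bp3 0.39 and Trim71 with Hmga1 0.30. Hmga2 had a rho between -0.14 and 0.18 with each of the other members in D1.

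These D1 values must be read against the rest of the transcriptome. The median rho with all 9810 genes that reached this share in D1 was 0.13 for Lin28a, 0.15 for Hmga1 and 0.17 for Igf2bp1, and 5% of those genes exceeded 0.43, 0.50 and 0.49. The pairs of Lin28a with Hmga1 and with Igf2bp1 ranked above 99.4% of genes, whereas Hmga1 with Igf2bp3 ranked above 85.6%. Given total reads and detected genes, the partial rho of Hmga1 with Igf2bp1 was 0.55, that of Lin28a with Igf2bp1 was 0.52 and that of Lin28a with Hmga1 was 0.52. In the 48 D1 cells with an Hprt read these pairs gave 0.56, 0.55 and 0.54. Trim71 with Hmga1 was under 0.3 when thinned (0.29), as a partial rho (0.23) and in the cells with an Hprt read (0.25). Dnmt3b, a de novo DNA methyltransferase gene, had a rho in D1 from -0.24 (with Hmga2) to 0.59 (with Hmga1) and was positive with the other 6 members. Its cofactor gene Dnmt3l had a rho from 0.12 (with Igf2bp3) to 0.51 (with Hmga1). The naive pluripotency genes had weaker values of both signs, from -0.13 (with Hmga1) to 0.29 (with Igf2bp3) for Nanog and from -0.30 (with Hmga1) to 0.19 (with Hmga2) for Zfp42. In D0 the Pearson correlation of log2(CPM + 1) between Igf2bp1 and Igf2bp3 was 0.58 while Spearman's rho was 0.26. A single D0 cell, with 2342 detected genes, had the lowest level of both (4.48 and 2.24 CPM). Its part in this gap was not tested.

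**Figure D5:**
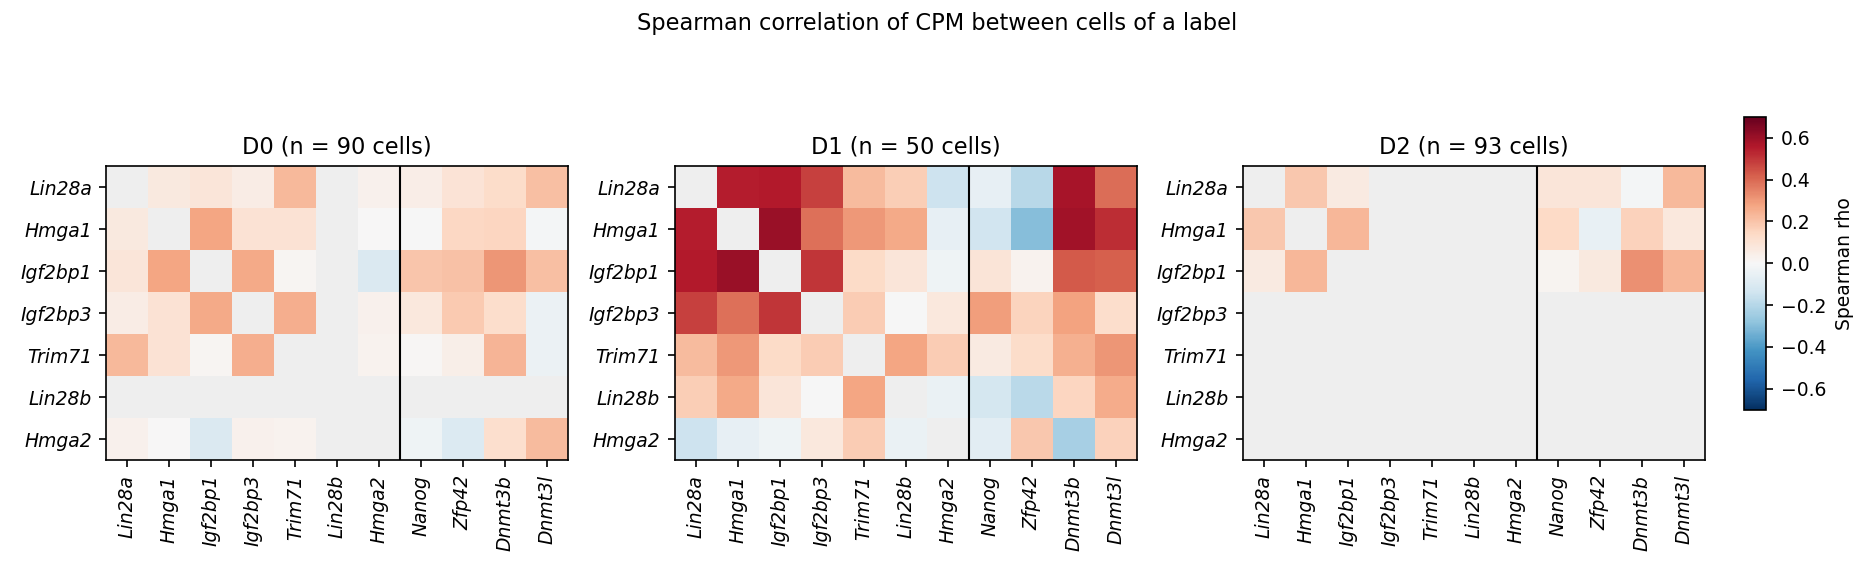
Spearman's rho of CPM between cells within D0, D1 and D2 for the members (rows) with each other and, right of the line, with Nanog, Zfp42, Dnmt3b and Dnmt3l. Red is positive and blue negative on a scale from -0.7 to 0.7. Grey marks a gene with itself or a member read in under 50% of the cells. The genes right of the line are shown whatever their share, which for Dnmt3l in D0 was 38.9%. The 4 genes Lin28a, Hmga1, Igf2bp1 and Igf2bp3 form a red block in D1, from 0.39 to 0.61, that is paler in D0.

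Among 3643 genes that reached this share in all 3 labels, the nearest pattern was found by the mean rho over the labels. For Lin28a it was that of Tufm (0.35), Chchd3 (0.35) and P4hb (0.33). For Hmga1 it was that of its copy Hmga1b (0.79), followed by Pgam1 (0.55) and Pkm (0.51), which encode glycolytic enzymes. For Igf2bp1 it was that of Usp5 (0.42), P4hb (0.41) and Sh3gl1 (0.40). Apart from Hmga1b, each of these genes had its highest rho in D1, where that of Hmga1 with Pgam1 was 0.83.

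The other genes of the pathway were taken from lists of microRNA processing and uridylation factors and of let-7 targets. Of 18 processing and uridylation genes, 0 were at least 2-fold higher and 7 at least 2-fold lower in D1 over D0 (median log2 ratio -0.89), beside 15.4% and 27.2% of all tested genes. In D2 over D0, 0 were higher and 9 lower (median -0.97), beside 16.5% and 28.3%. Ago2, which encodes the slicing Argonaute, had a mean of 348 ± 170 CPM in D0, 62.4 ± 43.6 in D1 and 42.8 ± 181 in D2. Its log2 ratios against D0 were -2.46 for D1 and -2.99 for D2, and those of Ago1 were -2.38 and -1.80. A single D2 cell carried much of the Ago1 value, which was -3.15 without it. The uridylyltransferases that LIN28 recruits differed from each other, with log2 ratios of -0.18 and -2.92 for Tut4 and of -1.71 and -2.08 for Tut7 (listed as Zcchc11 and Zcchc6). Dis3l2, the exonuclease that degrades uridylated pre-let-7, gave -1.13 and -0.66, and Dicer1, which cuts the precursors, gave -0.70 and -2.64. The D2 value of Dis3l2, from 15 cells with a read, was -1.14 without the highest. Ddx17 and Khsrp, which encode RNA-binding cofactors of processing, were below D0 in both labels, at -1.60 and -2.80 for Ddx17 and -1.53 and -4.04 for Khsrp.

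Of 16 other let-7 target genes, 3 were at least 2-fold higher and 3 lower in D1 over D0 (median -0.21), and 2 were higher and 7 lower in D2 over D0 (median -0.91). The shares of all tested genes were 15.4% and 27.2% in the first comparison and 16.5% and 28.3% in the other, and these counts are not read as a result about let-7 targets. Myc had log2 ratios of 4.27 and 4.33, from means of 2.72 ± 7.67, 70.8 ± 75.7 and 73.6 ± 216 CPM in the order D0, D1 and D2. Its relative Mycn gave 1.52 and 0.78. The TGF-β receptor gene Tgfbr1 gave -1.95 and -2.27, and the D2 value, from 3 cells with a read, was -3.13 without the highest. Ccnd2, a cyclin gene, had no read in 90 D0 cells, which allows a share of up to 3.33%. As deposited it was read in 10 of 50 D1 cells and 7 of 93 D2 cells, and at equal depth in 6 and 5. Igf2bp2, the remaining IGF2BP paralog, was lower in D1 than in D0, at -1.62, and gave -0.36 in D2 over D0. Of the 4 tested transcripts known as targets of TRIM71 or the IGF2BP proteins, 1 was at least 2-fold higher in both comparisons with D0, the immediate early gene Egr1 (3.74 and 4.26), and 0 were lower, too few genes to set beside the background. Egr1 was read in 17 of 50 D1 cells and 24 of 93 D2 cells, and its median was 0 CPM in every label. In D1, 88.6% of its summed CPM came from 5 cells. Cdkn1a, a cell cycle inhibitor gene known to be repressed by TRIM71, gave -0.67 and -0.44. The let-7 genes themselves could not be followed, since the libraries were made from polyA RNA. Mirlet7g had 26 reads in D0, 14 in D1 and 2 in D2 over all cells.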

How the data were processed

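Whole-number counts of reads per gene in 288 wells were used as the authors deposited them. Per the labels and the submitters' processing notes, polyA RNA of sorted cells was sequenced and aligned with HISAT2 to GRCm38. The counting tool and annotation are not given in the sources used here. Although a normalized table is named in the labels, these values are whole and include failing wells, and they were treated as raw.

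Cells with over 200000 reads, over 2000 genes and a mitochondrial share under 0.15 were kept (233 cells), and counts were divided by the total of the cell (CPM). The passing cells held from 202157 to 43336922 reads. Ratios are log2 of (mean CPM + 1) between labels, over genes with a mean of at least 1 CPM over the labels. A gene at least 2-fold apart is counted, with no test. Thinning drew 200000 reads per cell without replacement, and a count of 0 was taken to allow up to 3 counts. Exon lengths and 3′ UTRs came from GENCODE vM21 (GRCm38), and sequences of microRNAs from RefSeq. The table may have been made with another annotation.

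All 7 members are named. From each list, genes at least 2-fold apart in the same direction in D1 and D2 against D0 are named (at most 5), with Tut4, Tut7, Dis3l2, Dicer1, Ago2, Igf2bp2, Myc, Mycn and Cdkn1a whatever their values, except that 1 gene is not reported here. For each member with a read in at least 50% of cells in every label, the 3 genes with the highest mean rho are named. The members and lists were chosen with earlier results of these data known, and are no independent evidence. Lists covered processing and uridylation, let-7 targets, targets of TRIM71 and IGF2BP, pluripotency state and cell type markers. Hmga1b was named after its values were seen. Of the state list, 4 of 13 tested genes were at least 2-fold higher and 6 lower in D1 over D0, and 5 higher and 4 lower in D2 over D0, beside the shares of all tested genes given above (15.4%, 27.2%, 16.5% and 28.3%). Dnmt3l (4.83 and 4.34) and Dnmt3a (5.24 and 3.72) were the highest by the rule, and Tfcp2l1 (-4.92 and -2.85), Tbx3 (-3.29 and -3.27) and Klf4 (-2.01 and -3.89) the lowest.

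Python 3.11.15, numpy 2.4.6, pandas 2.3.3 and scipy 1.17.1 were used, with matplotlib 3.10.9 for the plots, and edgeR 4.0.16 in R 4.3.3 for the scaling factors. The scripts were tested on simulated data. Alternatives covered the filter on cells, the scaling, the pseudocount, thinning, parts of the plate, leaving out single cells, detection limits and the kind of correlation.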

Additional observations from a re-analysis of the deposited data

How the results depend on the processing

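The 14 log2 ratios of members that were at least 2-fold apart kept their sign under every alternative run for them, and of the 7 others 4 did. Of the former, Hmga1 in D2 over D1 was no difference (-0.0029) with Hmga1b summed. The exceptions among the latter were Lin28b in D2 over D0 (from -1.27 to 2.44), Trim71 in D1 over D0 (from -0.06 to 0.72) and Hmga2 in D1 over D0 (from -0.62 to 0.49). The number of members at least 2-fold lower in D1 over D0, 1 as reported, was 0 with reads summed over cells, TMM factors, median-of-ratios factors, a pseudocount of 10 CPM and plate columns 1 to 6. For members at least 2-fold higher in D2 over D0 the reported number of 1 became 2 with reads summed over cells, TMM factors, median-of-ratios factors, plate columns 7 to 12 and cells with over 5000 genes, and 3 in the inner wells. It was 1 to 2 with each cell left out in turn. The cause was not tested. The other counts of members stayed within 1.5 times the reported ones. Among them, the 3 members at least 2-fold higher in D1 over D0 became 2, without Lin28b, with a pseudocount of 10 CPM and on plate columns 1 to 6. TMM moved the median log2 ratio of all tested genes from -0.26 to 0.00076 in D1 over D0 and from -0.16 to 0.07 in D2 over D0, and with no filter on cells the first was -0.51. The filter of over 5000 genes, the sum with Hmga1b, the correlations in D1 cells with an Hprt read, the split of Hmga1 reads by Hprt, the share of Hmga2 with Hmga1b counted and list genes without their highest D2 cell were added after seeing the data. Under every alternative run, the median correlation between members moved by less than the sampling half-width of a single correlation in each label. That width exceeds the medians themselves (0.07 in D0, 0.18 in D1 and 0.19 in D2), so it says little about how stable they are.

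No paired analysis was possible because the labels name no separate cultures and number no replicates. Each comparison between labels rests on what was taken as 1 culture a label, on plates that differ in Hprt (D1) and in detected genes (D2). Lin28b, read in 5 D0 cells and 7 D2 cells, is also limited by the number of cells with a read.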
